A study of Mus musculus with 2 samples.

Results

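The genes described here are 10 immediate early response genes outside the FOS, JUN and EGR families, namely Btg1, Btg2, Ier2, Ier3, Ier5, Klf4, Klf6, Klf10, Myc and Srf. They were chosen by name, with earlier results of these data known. The question was where chromatin was open at and around them in gonadotrope cells after pulsatile GnRH. Accessibility was measured by ATAC-seq, in which a transposase inserts adapters into DNA that is not packed by nucleosomes. A peak is a region where the inserted fragments pile up, and its summit is the highest point of the pile. All peaks with a summit in a gene body or within 50 kb of either end were taken, which gave 28 of 58519 peaks in replicate 1 and 46 of 64984 in replicate 2.

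Both samples were LβT2 cells at passage 21, an immortalized line of mouse pituitary gonadotropes, so the model is 1 cell line in culture. Each received 2 nM GnRH in pulses spaced 2 h apart, 4 pulses within 6 h 45 min, and was harvested 45 min after the last. Untreated cells were not analysed here. The values therefore come from a single condition (n = 2) and cannot show an effect of GnRH. The labels do not say whether the replicates were separate cultures. The paper calls them replicate samples and reports its map as reproducible between independent samples and libraries, without naming separate cultures.

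GnRH acts on gonadotropes through a receptor coupled to Gq and activates protein kinase C, calcium and MAP kinase signalling. Immediate early genes respond to such signals without needing new protein synthesis. At many of them the serum response factor, encoded by Srf, sits on the CArG box together with ternary complex factors of the ETS family, and CREB binds the cyclic AMP response element (CRE) at others.

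The promoters of Srf and Btg2 and an intergenic peak upstream of Btg2 are shown because they held exact matches to the CArG box or the CRE. The searched motifs were the CArG box, the CRE TGACGTCA, the AP1 site TGAGTCA or TGACTCA, the EGR site GCGTGGGCG or GCGGGGGCG, the SP1 site GGGGCGGGG, the E-box CACGTG, the NF-Y site CCAAT and the ETS site CCGGAAG. Both strands were searched, and EGR and SP1 matches can overlap each other. The sequences are from GRCm38 on the minus strand, which is the strand of both genes, and read 5′ to 3′. They lie at chr17:46556203-46556315 upstream of Srf, at chr1:134079279-134079356 upstream of Btg2, and at chr1:134093098-134093187 within the intergenic peak. Capitals mark CArG boxes in the Srf promoter and in the intergenic peak, and the CRE with the neighbouring CCAAT in the Btg2 promoter.
Srf promoter: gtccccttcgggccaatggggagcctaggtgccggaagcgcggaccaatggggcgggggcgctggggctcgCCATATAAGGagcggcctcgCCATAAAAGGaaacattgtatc
Btg2 promoter: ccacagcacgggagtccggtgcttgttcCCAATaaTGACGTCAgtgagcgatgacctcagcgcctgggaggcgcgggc
Btg2 upstream peak: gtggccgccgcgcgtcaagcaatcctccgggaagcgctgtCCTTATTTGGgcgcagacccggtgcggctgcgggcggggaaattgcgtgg

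The promoters of Klf6, Ier5 and Ier3 are shown because they carried more than 1 CCAAT site, a motif bound by the factor NF-Y, close to the summit. They lie upstream of the annotated start sites at chr13:5861249-5861425 (plus strand, Klf6), chr1:155099663-155099759 (minus strand, Ier5) and chr17:35821454-35821557 (plus strand, Ier3). Capitals mark CCAAT or its reverse complement ATTGG. More than 1 CCAAT site within 150 bp of the highest promoter summit was also present at Srf in both replicates. The same held for Btg2 in replicate 1 and for Klf10 in replicate 2.
Klf6 promoter: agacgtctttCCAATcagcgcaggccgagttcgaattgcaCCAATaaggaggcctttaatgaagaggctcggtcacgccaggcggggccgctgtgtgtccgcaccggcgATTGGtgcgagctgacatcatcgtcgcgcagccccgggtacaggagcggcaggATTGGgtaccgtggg
Ier5 promoter: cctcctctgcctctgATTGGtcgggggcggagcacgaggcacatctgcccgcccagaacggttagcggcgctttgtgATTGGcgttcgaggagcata
Ier3 promoter: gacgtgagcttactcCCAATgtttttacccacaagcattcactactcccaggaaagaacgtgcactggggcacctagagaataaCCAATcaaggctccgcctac

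The deposited lists give for each peak the fold enrichment over the background of the peak caller and the −log10 of a q-value, which is a p-value adjusted over the genome of that replicate. The number of tags, the extended read ends piled up at a summit, was solved from these values. The background was 3.05 tags in replicate 1 and 3.54 in replicate 2, and the lowest listed summit held 10 and 11 tags. Where no peak is listed, accessibility was not detectable at this depth and with the settings of the peak caller, since the background and so the lowest listed summit depend on both. Intervals given for tags are exact 95% Poisson intervals and cover counting error only. The labelled cell type was checked at promoters of pituitary genes. The gonadotrope genes Lhb, Cga and Gnrhr had a promoter peak in both replicates, Nr5a1 in replicate 2 and Fshb in neither, while 0 of 5 genes of other pituitary lineages (Tshb, Prl, Gh, Pomc and Pou1f1) had one.

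A promoter peak, with its summit within 1 kb of an annotated start site, was listed for 7 of the 10 genes in replicate 1 and 8 of 10 in replicate 2. Of all 21951 protein-coding genes, 32.3% and 44.4% had one. The median GC content in the 301 bp around the start site was 66.3% for the 10 genes. Of coding genes with a GC content of 60% to 70% there, 47.5% and 65.3% had a promoter peak. The part of base composition in these counts was not tested. Btg1, Btg2, Ier5, Klf6, Klf10, Myc and Srf had a promoter peak in both replicates, as did 30.8% of coding genes. Ier3 had one in replicate 2 only, and Ier2 and Klf4 had none in either. At a −log10 q of at least 10 the counts were 5 and 7 of 10 genes, beside 11.1% and 26.7% of coding genes. The genes were chosen by name, with earlier results of these data known, and these shares were not tested.

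**Figure D1:**
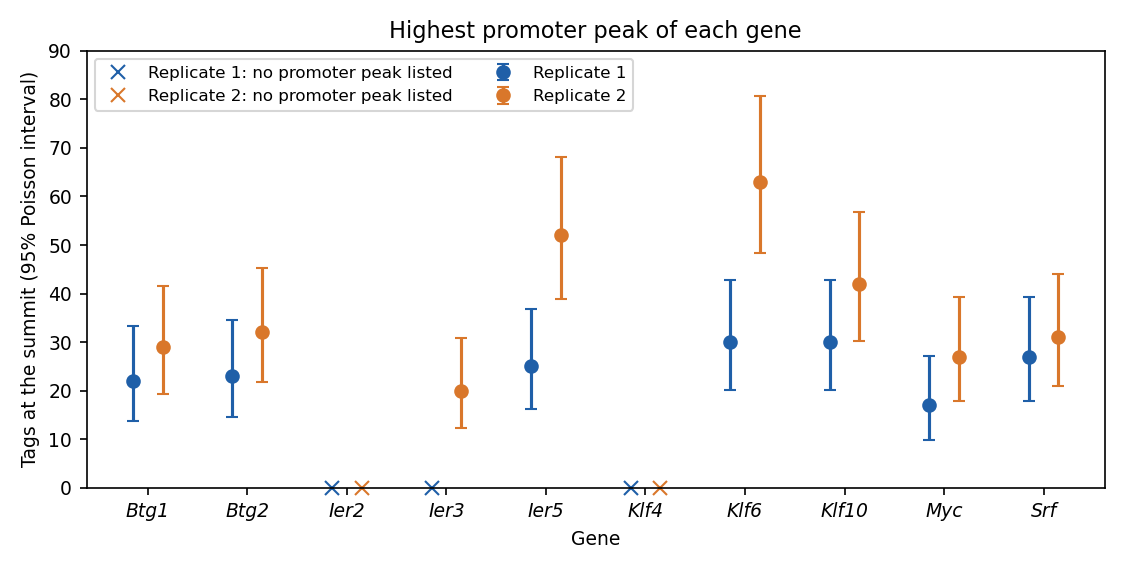
Tags at the summit of the highest promoter peak (vertical axis, bars are exact 95% Poisson intervals) for each gene (horizontal axis) in replicates 1 and 2; crosses at 0 mark genes with no listed promoter peak. Klf6 reached 63 tags in replicate 2 and Ier2 and Klf4 had no peak in either replicate.

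Klf6, Klf10 and Klf4 encode Krüppel-like zinc finger factors that bind GC-rich DNA. Klf6 (chr13:5861482-5870394, plus strand) had the highest promoter peak of the 10 genes in replicate 2. Its summit held 30 tags in replicate 1 (20.2 to 42.8) and 63 in replicate 2 (48.4 to 80.6), at 224 and 142 bp upstream of the first start site. The −log10 q values were 16.65 and 51.6, at the 83.9th and 93.6th percentile of coding genes with a promoter peak, and the fold was 10.9 ± 4.57 (SD, n = 2). The printed Klf6 sequence lay inside this peak in both replicates. The first of its CCAAT sites lay 1 bp from the summit of replicate 1, and the third lay 18 bp from that of replicate 2 (distances are to the lower coordinate of a match). Replicate 2 listed another promoter peak 926 bp downstream of the first start site with 14 tags and no overlapping peak in replicate 1.

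Klf10 (chr15:38291463-38300706, minus strand), which encodes a TGFβ-inducible factor, had a pair of promoter peaks in each replicate, at different annotated start sites. The peak upstream of the first start site held 20 tags in replicate 1 and 42 in replicate 2, and −log10 q was 7.74 and 27.2. The other, 1.42 and 1.25 kb downstream of the first start site, held 30 and 41 tags, with −log10 q of 16.65 and 26.1. So the downstream peak was the higher of the pair in replicate 1, while in replicate 2 they differed by 1 tag. The upstream peak spanned 1996 bp in replicate 2.

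No Klf4 promoter peak was listed in either replicate. Klf4 (chr4:55527143-55532466, minus strand) encodes a factor known for its part in pluripotency and epithelial differentiation. Its nearest summit was 4.96 kb away in replicate 1, with 17 tags, and 16.9 kb away in replicate 2, with 20 tags. These were different peaks, and neither overlapped a peak of the other replicate. The 301 bp around the Klf4 start site had a GC content of 78.4%, the highest of the 10 genes and at the 97.1st percentile of coding genes. Of coding genes with a GC content of 70% or more there, 40.8% and 60.5% had a promoter peak in replicates 1 and 2. All 1951 words of 50 bp within 1 kb of the Klf4 start site occurred once in the genome. The part of base composition in the missing peak was not tested.

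Ier2, Ier3 and Ier5 are named for the immediate early response. Ier2 and Ier5 encode related nuclear proteins, and Ier3 a small protein involved in survival signalling. Ier5 (chr1:155096361-155099636, minus strand) had 25 tags at its promoter summit in replicate 1 (16.2 to 36.9) and 52 in replicate 2 (38.8 to 68.2). The summits lay 11 bp downstream and 86 bp upstream of the start site. The −log10 q was 11.95 and 38.3. Ier5 was the only Ier gene with a promoter peak in replicate 1, and in replicate 2 its −log10 q was above that of Ier3. The printed Ier5 sequence was inside the peak in both replicates, and its CCAAT sites lay 53 and 115 bp from the summit of replicate 1 and 44 and 18 bp from that of replicate 2.

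Ier3 (chr17:35821684-35822923, plus strand) had a promoter peak in replicate 2 only. Its summit held 20 tags (12.2 to 30.9), 109 bp upstream of the start site, with a −log10 q of 6.93. In replicate 1 the nearest summit to Ier3 was 17.02 kb away. The lowest listed peak of replicate 1 held 10 tags. Whether a weaker promoter signal went unlisted there was not tested.

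Ier2 (chr8:84661331-84662852, minus strand) had no promoter peak in either replicate. The nearest summit in replicate 2 lay 1213 bp upstream of the start site, just outside the promoter window, with 16 tags and a −log10 q of 4.19. In replicate 1 the nearest summit was 184.1 kb away. Of 50 bp words within 1 kb of the start site, 98.8% occurred once in the genome. The GC content at the start site was 52.5%, the lowest of the 10 genes and equal to the median of coding genes with no promoter peak. Its ratio of observed to expected CpG there was 0.918, the highest of the 10 genes, beside medians of 0.301 for coding genes with no promoter peak and 0.811 for those with one in both replicates.

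Btg1 and Btg2 encode antiproliferative proteins of the BTG and TOB family, which recruit the deadenylase complex that shortens the tails of mRNAs. Btg1 (chr10:96617006-96622809, plus strand) had 22 and 29 tags at its promoter summit, with −log10 q of 9.36 and 14.3 and a fold of 6.15 ± 0.661 (SD, n = 2). Btg2 (chr1:134075170-134079120, minus strand) had 23 and 32 tags, with −log10 q of 10.2 and 17.1 and a fold of 6.60 ± 0.955 (SD, n = 2). The Btg2 summits lay 191 and 10 bp upstream of the start site. The CRE in the printed Btg2 promoter lay 3 bp from the summit of replicate 1, and it was outside 150 bp of the summit of replicate 2 but inside the peak. An exact CRE within 150 bp of the summit was present in 3.77% and 3.49% of the highest promoter peaks of coding genes. Among the 7 and 8 immediate early genes with a promoter peak it was present at Btg2 alone, in replicate 1.

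Myc (chr15:61985391-61990374, plus strand) encodes a basic helix-loop-helix factor that binds E-boxes with its partner Max. Its highest promoter summit held 17 tags in replicate 1 (9.90 to 27.2) and 27 in replicate 2 (17.8 to 39.3), and −log10 q was 5.49 and 12.5. This was the lowest value of the 7 genes with a promoter peak in both replicates, in each replicate. Myc had more promoter peaks than any of the other 9 genes, 3 in replicate 1 and 4 in replicate 2, over 6 annotated start sites. Of these, 2 overlapped between replicates. They were the highest peak and 1 peak near 1.8 kb downstream of the first start site, which held 14 and 26 tags. A peak of replicate 2 at 247 bp upstream of the first start site, with 25 tags, had no partner in replicate 1.

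Of the 7 genes, Srf (chr17:46548329-46556175, minus strand) had the promoter peak that was most even between replicates in tags, fold and −log10 q. It held 27 tags in replicate 1 (17.8 to 39.3) and 31 in replicate 2 (21.1 to 44.0), and the fold was 6.98 ± 0.100 (SD, n = 2). The −log10 q was 13.8 and 16.1, with summits 209 and 154 bp upstream of the start site. These −log10 q values were at the 78.25th and 61.5th percentile of coding genes with a promoter peak, the widest spread of the 7 genes. The pair of CArG boxes shown above began 82 and 62 bp upstream of the start site of the RefSeq promoter. Both were inside the peak of replicate 1, and in replicate 2 the one nearer to the start site lay just beyond the edge of the peak. Within 150 bp of the summit, replicate 1 held 1 of the boxes and replicate 2 both. Among the 7 and 8 genes with a promoter peak, Srf was the only one with an exact CArG box at the summit. Of coding promoter peaks, 1.38% and 1.02% had one in replicates 1 and 2. The same promoter also held the EGR, SP1, ETS and CCAAT motifs, but not the CRE, AP1 site or E-box.

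Ordered by tags in replicate 1, the 7 genes ran from Klf6 and Klf10 through Srf, Ier5, Btg2 and Btg1 to Myc, and the counting intervals of all 7 overlapped. In replicate 2 Klf6 and Ier5 came first. The interval of Klf6 there was above those of Btg1, Btg2, Srf, Myc and Ier3 and overlapped those of Ier5 and Klf10. The median percentile among coding genes with a promoter peak was 73.3 over the 7 genes of replicate 1 and 62.6 over the 8 of replicate 2, beside 50 by construction for all such genes. The −log10 q was higher in replicate 2 for 7 of 7 genes, and for 92.9% of coding genes with a peak in both.

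**Figure D2:**
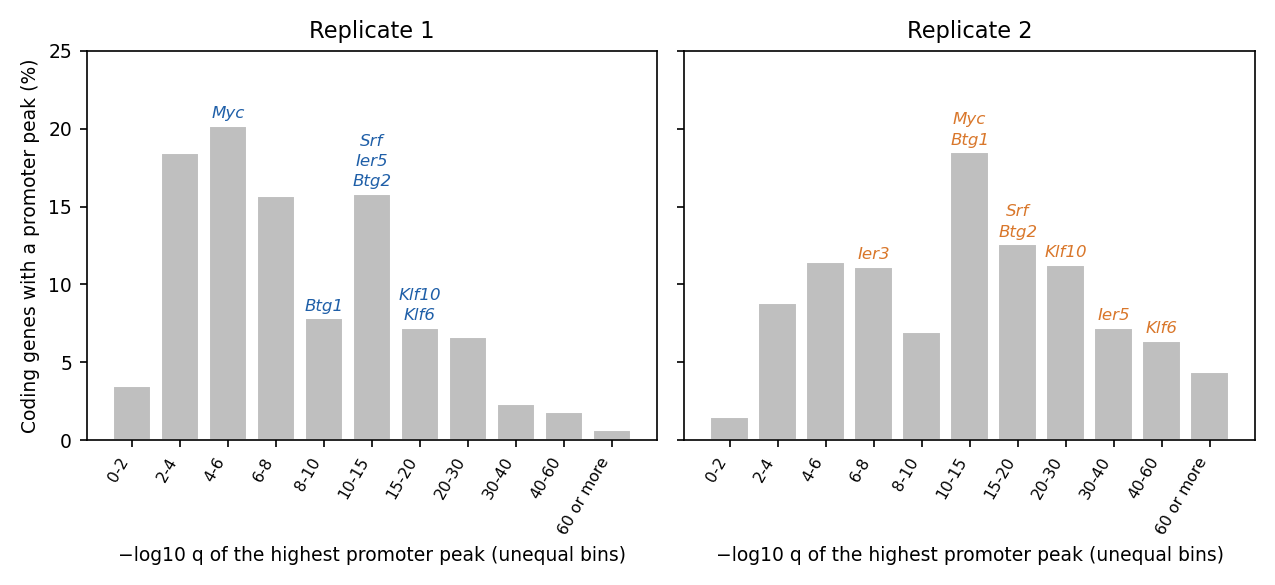
Percent of protein-coding genes with a promoter peak (vertical axis) by the −log10 q of their highest promoter peak (horizontal axis, unequal bins) in replicate 1 (left) and replicate 2 (right), with the 7 and 8 immediate early genes named above their bin. None of these genes reached the highest bin of 60 or more, and Myc was in the lowest bin of any of them in replicate 1.

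CCAAT, the shortest of the searched motifs, was the most frequent of them at these promoters, as it was at all coding promoter peaks. It was present within 150 bp of the highest promoter summit in 6 of 7 genes in replicate 1 and 7 of 8 in replicate 2, with Myc the exception in each. Among all coding promoter peaks 44.0% and 41.3% had it, and among single-copy peaks away from promoters 36.1% and 35.6%. The Klf10 matches lay at different peaks, the downstream one in replicate 1 and the upstream one in replicate 2. At Btg1 in replicate 1 the match lay 146 bp from the summit. In the RefSeq promoters, 250 bp before to 50 bp after the start, 6 of the 7 matched genes had CCAAT and 42.3% of 17491 coding genes. The gene without it was Klf4, whose promoter instead held EGR, SP1 and E-box matches. Ier2, Klf10 and Myc were not in the RefSeq table. No AP1 site was found at the highest promoter summit of the 7 and 8 genes with a promoter peak. Of coding promoter peaks, 3.40% and 2.95% had an AP1 site. These matches describe letters in a window and were not tested.

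Outside the promoters, the windows held 18 distal peaks in replicate 1 and 32 in replicate 2. Of these, 4 and 8 lay at the promoter of another coding gene, 3 and 7 at that of a noncoding gene, 1 in each replicate in an exon of the gene itself, 2 and 3 in the body of another gene, and 8 and 13 between genes. A window of these genes held a median of 2.5 and 4 peaks, beside 2 and 3 for windows of all coding genes. An overlapping peak in the other replicate was found for 24 peaks in each, 85.7% of the window peaks of replicate 1 and 52.2% of those of replicate 2. The shares over all peaks were 59.1% and 51.7%. Single-copy peaks, whose summit sequence occurs once in the genome, made up 85.7% and 91.3% of the window peaks. Over all peaks they made up only 33.1% and 38.9%. Of the single-copy window peaks, 22 of 24 and 23 of 42 overlapped, beside 66.9% and 49.6% of all single-copy peaks. The 22 peaks of replicate 2 without a partner had a median of 16 tags, and the 24 with one a median of 30.5.

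**Figure D3:**
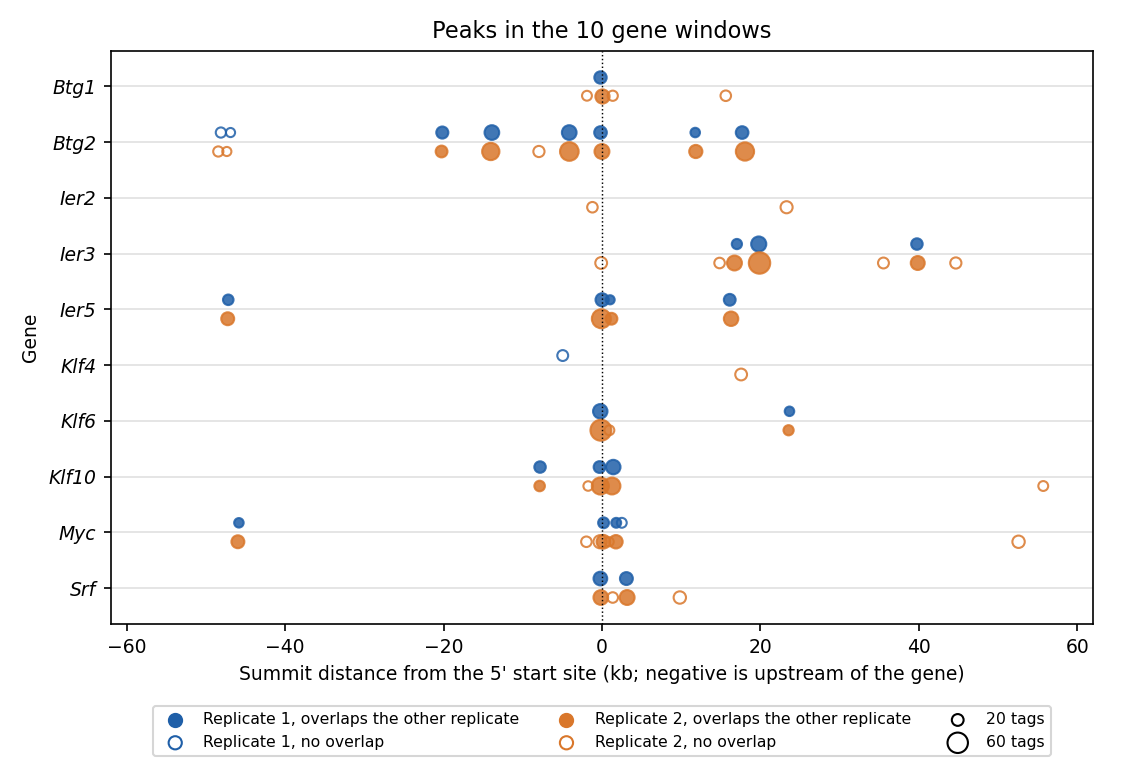
Peaks in the window of each gene (vertical axis) by summit distance from the first start site in kb (horizontal axis), with replicate 1 above and replicate 2 below each line. Circle area is proportional to summit tags, and filled circles overlap a peak of the other replicate; Btg2 has 8 and 9 peaks, and Klf4 has 1 in each replicate with no overlap.

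Btg2 had the most peaks, 8 in replicate 1 and 9 in replicate 2, of which 6 overlapped. At least 8 peaks were found in 8.33% and 12.4% of coding gene windows. In each replicate 2 of the Btg2 peaks lay over sequence found at many places in the genome. Without them Btg2 had 6 and 7 peaks, the most in replicate 1 and as many as Ier3 and Myc in replicate 2. The window included 2 other coding genes, neither with a promoter peak. An intergenic peak 4.14 and 4.13 kb upstream of the start site held 31 tags in replicate 1 (21.1 to 44.0) and 50 in replicate 2 (37.1 to 65.9). Its −log10 q was 17.6 and 36.0, which put it at the 97.7th and 98.9th percentile of peaks away from promoters. The summits lay 14 bp apart, the closest of all 24 overlapping pairs. The sequence between and around them, chr1:134083204-134083304 on the minus strand, is printed because this was the highest peak of the window in replicate 2, and it held none of the 8 motifs, so no letter is in capitals.
Btg2 upstream peak near 4 kb: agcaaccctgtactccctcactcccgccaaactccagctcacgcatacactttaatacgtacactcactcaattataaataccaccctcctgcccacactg

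The intergenic peak 13.9 and 14.04 kb upstream of Btg2 held 31 and 43 tags, with −log10 q of 17.6 and 28.2. It carried the exact CArG box printed above, which lay 113 bp from the summit of replicate 1 and 26 bp from that of replicate 2. Of single-copy peaks away from promoters, 1.39% in each replicate had a CArG box within 150 bp of the summit. Both upstream peaks had more tags than the Btg2 promoter in both replicates, although the counting intervals overlapped those of the promoter.

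Downstream of Btg2, a peak 17.7 and 18.0 kb from the start site held 23 and 48 tags, with −log10 q of 10.2 and 33.8. A lower one 11.8 kb downstream held 13 and 25 tags, and in replicate 2 an AP1 site lay within 150 bp of its summit, as in 7.43% of single-copy peaks away from promoters. The peak 20.16 and 20.25 kb upstream lay at the promoter of the noncoding gene Gm38140 and held 21 and 20 tags. The remaining peaks had no overlap. Those 46.9 to 48.4 kb upstream, in the body of Chit1, had 12 to 15 tags and summit sequence that occurred at 94 to 616 places in the genome.

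Counted together, Btg2 had 3 distal peaks with a −log10 q of at least 10 in both replicates and away from any annotated promoter. The other 9 genes had 0. At least 1 such peak was present in the windows of 9.002% of coding genes and at least 3 in 0.911%. This count was chosen after the values had been seen and was not tested.

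**Figure D4:**
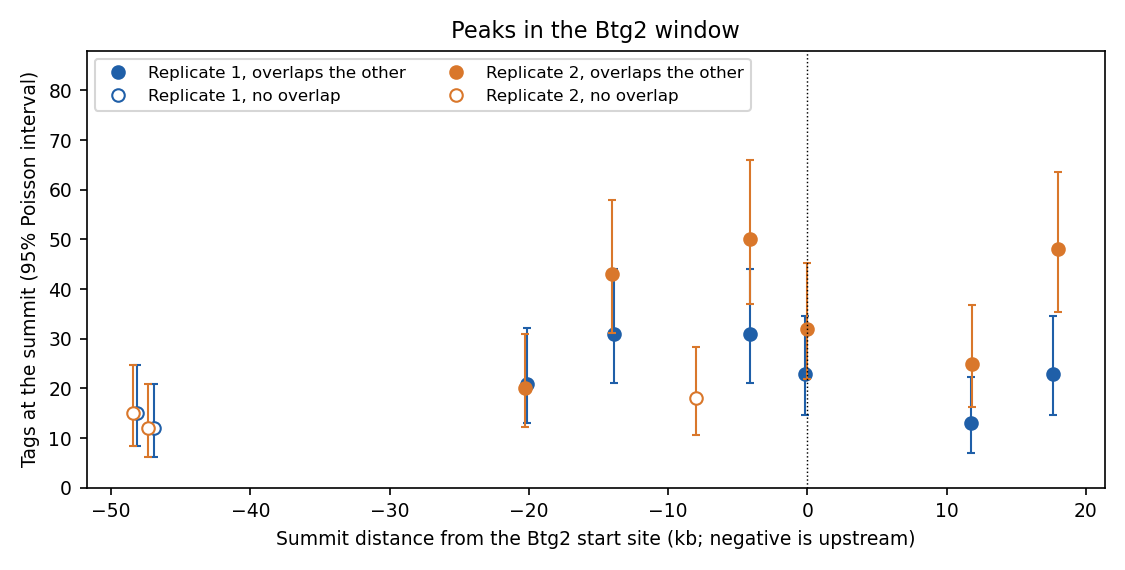
Tags at the summit (vertical axis, bars are exact 95% Poisson intervals) of each peak in the Btg2 window by distance from the Btg2 start site in kb (horizontal axis) in replicates 1 and 2. Filled points overlap a peak of the other replicate, and the peaks near 4 and 14 kb upstream exceed the promoter peak at 0 in both replicates.

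The Srf gene itself contained a peak 3.08 and 3.17 kb downstream of its first start site. It held 24 and 32 tags, with −log10 q of 11.1 and 17.1, close to those of the Srf promoter at 13.8 and 16.1. The start of the microRNA gene Mir6976 lies within 1 kb of it, so it was counted as a noncoding promoter. In replicate 2 only, Srf had another peak 1.35 kb downstream of the first start site with 16 tags, and 1 at the promoter of the neighbour Cul9 with 22 tags.

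Ier5 was the only one of the 10 genes with 4 peaks in each replicate, all of which overlapped. Apart from the promoter, they were an exonic peak 1.02 and 1.19 kb downstream of the start site (12 and 20 tags), a peak at the start of the noncoding gene Gm9530 (20 and 30 tags) and one at the promoter of Mr1, an antigen-presenting molecule (16 and 24 tags). The Gm9530 peak lay 16.1 and 16.3 kb downstream of Ier5, with −log10 q of 7.74 and 15.2.

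The distal peaks of Ier3 all lay at or in neighbouring genes. The highest, at the promoter of Mdc1, which encodes a mediator of the DNA damage checkpoint, held 33 tags in replicate 1 and 66 in replicate 2, and −log10 q was 19.7 and 55.4. Peaks at Tubb5, a tubulin gene, held 15 and 32 tags, and at Nrm, a nuclear membrane protein gene, 19 and 28 tags. The distal peak of Ier2 with the most tags likewise lay at the promoter of another gene, Cacna1a, a calcium channel subunit, with 21 tags in replicate 2 only.

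Myc had an overlapping intergenic peak 45.84 and 45.97 kb upstream, with 13 and 24 tags and −log10 q of 2.88 and 10.0. In replicate 2 only, a peak with 22 tags lay at the start of Pvt1, the long noncoding RNA gene downstream of Myc, with an exact CRE 20 bp from its summit. Klf10 had an overlapping peak 7.82 and 7.88 kb upstream with 19 and 16 tags, and its summit sequence occurred at 6 places in the genome in replicate 1 and once in replicate 2. The overlapping distal peak of Klf6, 23.7 and 23.5 kb downstream of the first start site, held 13 and 15 tags over sequence found at 2231 and 2070 places. Reads from such repeated sequence cannot be assigned to 1 place with certainty. Btg1 had 0 distal peaks in replicate 1 and 2 in replicate 2, of 14 and 16 tags.

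Over the 24 overlapping pairs, 9 at promoters and 15 distal, the −log10 q was higher in replicate 2 for 22, or 91.7%. Over all 34568 overlapping pairs it was higher in replicate 2 for 73.5%. At the highest promoter peak of coding genes with one in both replicates, it was higher in replicate 2 for 92.9%. The fold in replicate 2 divided by that in replicate 1 had a median of 1.35 in the windows and 1.10 over all pairs. In the windows the ratio ranged from 0.759, at the Klf10 peak near 7.8 kb upstream, to 1.84, at the Klf6 promoter. Single-copy peaks made up 85.7% and 91.3% of window peaks but 33.1% and 38.9% of all peaks, so the sets are unlike. The ratio is not given over single-copy pairs alone. The Klf10 peak and the Gm38140 peak near Btg2 were the 2 pairs that were lower in replicate 2. Summits of a pair lay 14 to 360 bp apart, with a median of 100 bp.

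**Figure D5:**
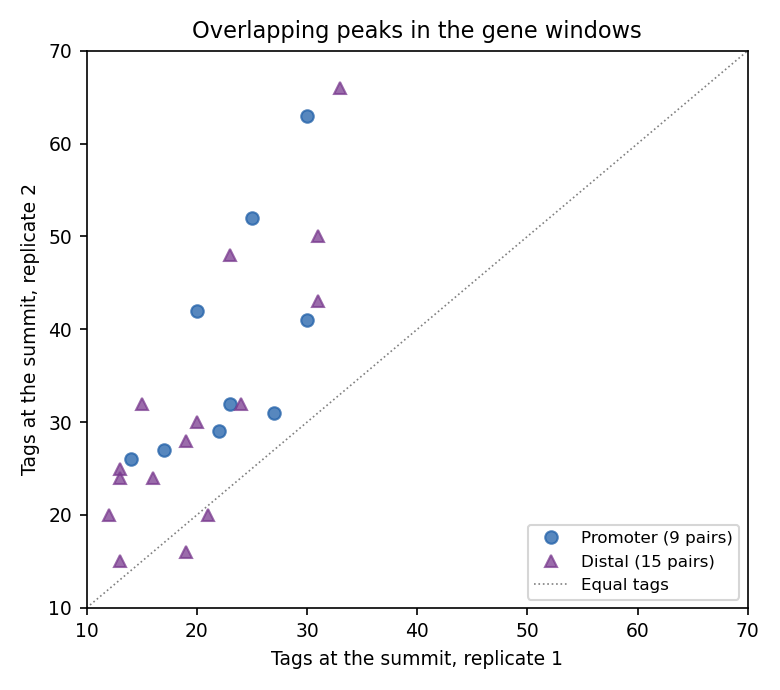
Tags at the summit in replicate 1 (horizontal axis) and replicate 2 (vertical axis) for the 24 overlapping pairs of peaks, 9 at promoters and 15 distal, with a dotted line at equal tags. The 2 pairs below the line are distal, at 19 and 16 tags and at 21 and 20 tags.

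Relatives and partners of the 10 genes were read in the same way. Of 23 such genes, 15 had a promoter peak in replicate 1 and 17 in replicate 2, 14 of them in both and 5 in neither. Over those with a promoter peak, the median −log10 q was 8.54 and 22.99. It was 11.95 and 16.6 over the 7 and 8 immediate early genes with one, and 6.97 and 12.5 over the 7085 and 9740 coding genes with one. Of 9 other Krüppel-like genes, 6 and 7 had one, among them Klf13 (41 and 68 tags), Klf7 (36 and 51 tags) and Klf5 (35 and 85 tags). Klf15 and Klf16 had none in either replicate, as for Klf4. Of the other BTG and TOB genes, Btg3 had a promoter peak in both (12 and 47 tags), Tob1 in replicate 1 only (40 tags), Tob2 in replicate 2 only (16 tags) and Btg4 in neither.

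Among the partners of Myc, Max had 21 and 40 tags at its promoter summit. Mxd1, which encodes a competitor of Myc for Max, had 34 and 41, and the paralog Mycn had 21 and 30, while Mycl had no promoter peak. Among the cofactors of Srf, Mrtfa, an actin-regulated coactivator, had 36 and 61 tags and the ternary complex factor Elk1 had 15 and 38. Elk4 had a promoter peak in both replicates, Mrtfb in replicate 2 only and Elk3 in neither. Ier5l, a relative of Ier5, had 12 and 25 tags.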

How the data were processed

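ATAC-seq peak lists of 2 replicates of LβT2 cells under 1 condition were used. The authors aligned read pairs with Bowtie2 (GRCm38), discarded duplicates and called peaks per replicate with MACS2. Versions are not given in the sources used here. The genome size option was the fly preset, which sets the expected number of tags and so the level of fold and q. In each list 1 background value fitted all peaks, so fold and q followed the order of tags. Whether another genome size would change that order was not tested. The deposited columns were a peak score (10 times −log10 q as a whole number), the fold enrichment as a ratio to background, −log10 of p and q, and positions. All peaks were kept.

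Tags at the summit were solved from fold and p; 100% were whole within 0.02 tags. Single-copy means that the 50 bp at a summit occur once in the genome. Sharing required an overlap of 1 bp. Genes and start sites were from GENCODE vM21, and promoter sequences from RefSeq on GRCm38.p6. The work used numba 0.67.0, scipy 1.17.1, pandas 2.3.3, numpy 2.4.6 and matplotlib 3.10.9 under Python 3.11.15, and the functions were tested on simulated data. With 1 condition, no test was run: values are per replicate or mean ± SD (n = 2), limited by medians of 14 and 16 tags per peak. The genes named were the 10 genes, 23 relatives and partners, 10 marker genes and neighbours at whose promoter a distal peak lay; Chit1 was added after its values were seen. The genes and lists were chosen with earlier results of these data known. Alternatives concerned promoter width, q, flank, overlap, copy number, annotation, the CArG search and each replicate. Reads, footprints and expression were not analysed here.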

Additional observations from a re-analysis of the deposited data

How the results depend on the processing

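The mean number of genes with a promoter peak, 7.5 over both replicates, lay between 6 and 8 under all alternatives. The mean of 25 distal peaks fell to 14.5 at a −log10 q of at least 5, to 8 at a −log10 q of at least 10 and to 15 where the nearest coding gene had to be the gene itself, and it rose to 43 with a flank of 100 kb. The mean share of overlapping peaks, 68.9%, was 37.3% when summits had to lie within 100 bp of each other. The 1 gene with a CArG box became a mean of 0.5 within 100 bp of the summit and 4 when 1 mismatch was allowed, which 15.2% and 13.4% of coding promoter peaks then had. Leaving out replicate 1 or 2 gave 7 to 8 genes with a promoter peak, 18 to 32 distal peaks and shares of 52.2% to 85.7%. Of 42 values recomputed, 35 stayed within the replicate spread or 1.5 times the count. The 35 include all values that left out replicate 1 or 2. With n = 2 each of these is the value of the other replicate, so it lay within the spread by construction. No paired analysis was possible because there was 1 group. Signals under 10 and 11 tags could not be seen.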
